A study of Mus musculus with 8 samples.

Results

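The aggrecan gene and 9 further genes of the non-collagenous cartilage matrix were described in RNA from mouse knee joints. The genes were chosen by name, with earlier results of these data known: Acan, Hapln1, Comp, Matn1, Matn3, Matn4, Cnmd, Chad, Cilp and Cilp2. Of these 10 genes, 9 had a row among the 20681 rows of the deposited table, and all 9 passed the filter on low values and were tested. Matn1, the gene of matrilin-1, had no row of that name and was not analysed here.

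Poly-A libraries were sequenced from 8 knee joint samples, 4 labelled control and 4 labelled knockout. The series describes all the mice as Acan-Cre;Loxl2 fl/fl, so that Cre recombinase is driven by the aggrecan gene and is meant to remove Loxl2 in cells that express aggrecan. Loxl2 encodes lysyl oxidase-like 2, an enzyme that crosslinks collagen. The controls are described as vehicle-treated, while their library names carry LOXL2wt, and the names of both groups carry DMM, an abbreviation that usually stands for surgical destabilisation of the medial meniscus. The labels name no inducing agent, age, sex or time after surgery, and do not say whether joints were pooled. Nothing in them says how the joints were dissected, and no source says that the libraries of a group came from separate animals, so p-values here measure the spread between these libraries. In RNA from a whole joint, fewer cells of a type and less RNA per cell cannot be told apart.

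Aggrecan is the large proteoglycan that holds water in cartilage. It binds hyaluronan, and the link protein encoded by Hapln1 locks that bond, so that aggregates fill the collagen network. Around them lie adapter proteins: the matrilins, oligomers that bridge proteoglycans and collagen fibrils, COMP, a pentameric member of the thrombospondin family that is also abundant in tendon, ligament and meniscus, chondroadherin (Chad), a leucine-rich protein that binds collagen and cell-surface integrins, and the cartilage intermediate layer proteins of Cilp and Cilp2. Chondromodulin (Cnmd) is a membrane-anchored protein of avascular cartilage that is known to hold back blood vessel growth.

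The sequences before the annotated starts of 4 of the genes are shown: Acan because it drives the Cre, Matn4 as a member called different between the groups beside Matn3 as a relative that was not, and Cilp as one of the abundant adapter genes. Each is the stretch of 250 bases before a RefSeq start on build GRCm38.p6, written in the direction of transcription. They lie at chr7:79052976-79053225 (plus strand) for Acan, chr12:8947679-8947928 (plus) for Matn3, chr2:164405161-164405410 (minus) for Matn4 and chr9:65264930-65265179 (plus) for Cilp. Capitals mark any match, on either strand, to 3 motifs: the core bound by SOX factors, with the letters AACAAT, the TATA box, with the letters TATAAA, and the GC box, with the letters GGGCGG.
Acan: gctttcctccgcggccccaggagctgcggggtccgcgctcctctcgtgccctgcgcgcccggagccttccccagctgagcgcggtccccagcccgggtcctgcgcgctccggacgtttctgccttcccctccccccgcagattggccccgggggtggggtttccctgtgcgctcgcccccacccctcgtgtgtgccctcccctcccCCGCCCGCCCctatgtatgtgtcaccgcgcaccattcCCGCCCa
Matn3: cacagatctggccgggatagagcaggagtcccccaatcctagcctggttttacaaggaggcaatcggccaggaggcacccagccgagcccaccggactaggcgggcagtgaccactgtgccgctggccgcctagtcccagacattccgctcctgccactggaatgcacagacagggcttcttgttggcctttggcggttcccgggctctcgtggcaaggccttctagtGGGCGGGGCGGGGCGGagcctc
Matn4: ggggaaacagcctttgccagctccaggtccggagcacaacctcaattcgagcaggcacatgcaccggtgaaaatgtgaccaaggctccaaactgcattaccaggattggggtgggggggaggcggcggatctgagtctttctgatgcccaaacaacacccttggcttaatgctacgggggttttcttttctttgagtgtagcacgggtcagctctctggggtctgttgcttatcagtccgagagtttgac
Cilp: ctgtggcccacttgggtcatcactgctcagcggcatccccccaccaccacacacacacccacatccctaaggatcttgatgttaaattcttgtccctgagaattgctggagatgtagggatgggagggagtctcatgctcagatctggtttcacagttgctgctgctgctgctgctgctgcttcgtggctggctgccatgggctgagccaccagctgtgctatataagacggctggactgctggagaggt

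Of the 10 genes, 9 had an entry in the RefSeq table, Comp being the one without, and Matn4 had entries for 2 starts. The stretches of Hapln1 and Cilp2 are not shown or described, because each overlaps a part that GENCODE M21 annotates as untranslated region of the same gene. The Acan stretch was the richest in G and C, at 74.4% with 26 CpG pairs, against a median of 52.4% and 6 CpG pairs over the 32851 stretches of the same length. Matn3 followed with 65.2% and 14 CpG pairs, while Matn4 reached 54.4% with 8 and Cilp 56.0% with 3. GC boxes stood 3 times each before Acan and Matn3 and in neither the Matn4 nor the Cilp stretch, some of them overlapping, and 32.7% of all stretches held one. The exact letters AACAAT and TATAAA were found in none of the 4 shown, beside 9.42% and 12.4% of all stretches. Close variants, such as the tatataag near the end of the Cilp stretch, were not counted. The second Matn4 start, not shown, had 62.8% with 14 CpG pairs and 1 GC box, closer to Matn3 than the start shown. Such matches describe letters and are not shown to be sites.

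The library totals and the targeted gene were examined first. The deposited values are normalised read counts, that is, reads assigned to a gene divided by 1 size factor per library, and the reads recovered from them came to 13991000 to 17411617 per library. Control replicates 1 to 4 held 282, 349, 1135 and 311 normalised reads of Loxl2, and the libraries labelled knockout held 893, 1468, 960 and 1518. It was therefore higher under the knockout label (log2 difference 1.44 ± 0.40 (SE), limma adjusted p = 0.0294, exact permutation p = 0.0857), although control replicate 3 lay among the libraries labelled knockout. The limma call was lost in 5 of the 8 fits that left out 1 library, that is, when replicate 1, 2 or 4 of the controls or replicate 2 or 4 of the labelled knockout was left out, with adjusted p up to 0.0849. Neither edgeR (adjusted p = 0.0669) nor DESeq2 (adjusted p = 0.0659) called it. The groups are therefore named only as labelled. Of the 14949 genes tested, 1732 (11.6%) were called higher in the libraries labelled knockout and 1729 (11.6%) lower, together 23.2%, at a limma adjusted p under 0.05. That balance depended on scaling, since 2708 of 3492 calls were higher when each library was scaled on its summed reads without the muscle, erythroid and neutrophil markers and the 50 highest genes, which moved the median of all genes by 0.15 on the log2 scale.

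All 9 cartilage matrix genes had a higher mean log2 value in the libraries labelled knockout, and 3 of them, Hapln1, Matn4 and Cilp2, were called. The link protein gene, 1 matrilin gene and 1 gene of a cartilage intermediate layer protein rose about 2-fold, while aggrecan itself, Matn3, Cnmd and Chad did not pass the test, and Comp and Cilp lay just outside it. The median log2 difference of the 9 genes was 0.84, beside 0.00 over all genes tested, of which 50.1% were higher. The members called came to 33.3% of those tested, beside the 11.6% called higher among all genes. For 2 of the 9, Matn4 and Cilp2, the groups did not overlap with the labelled knockout higher, a pattern seen in 11.7% of all genes tested. With the score of the skeletal muscle markers as a covariate limma called 0 members and 0 genes (1 and 710 at an unadjusted p under 0.05), while the group accounted for 82.4% of the variance of the score, so the score and the group cannot be told apart.

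**Figure D1:**
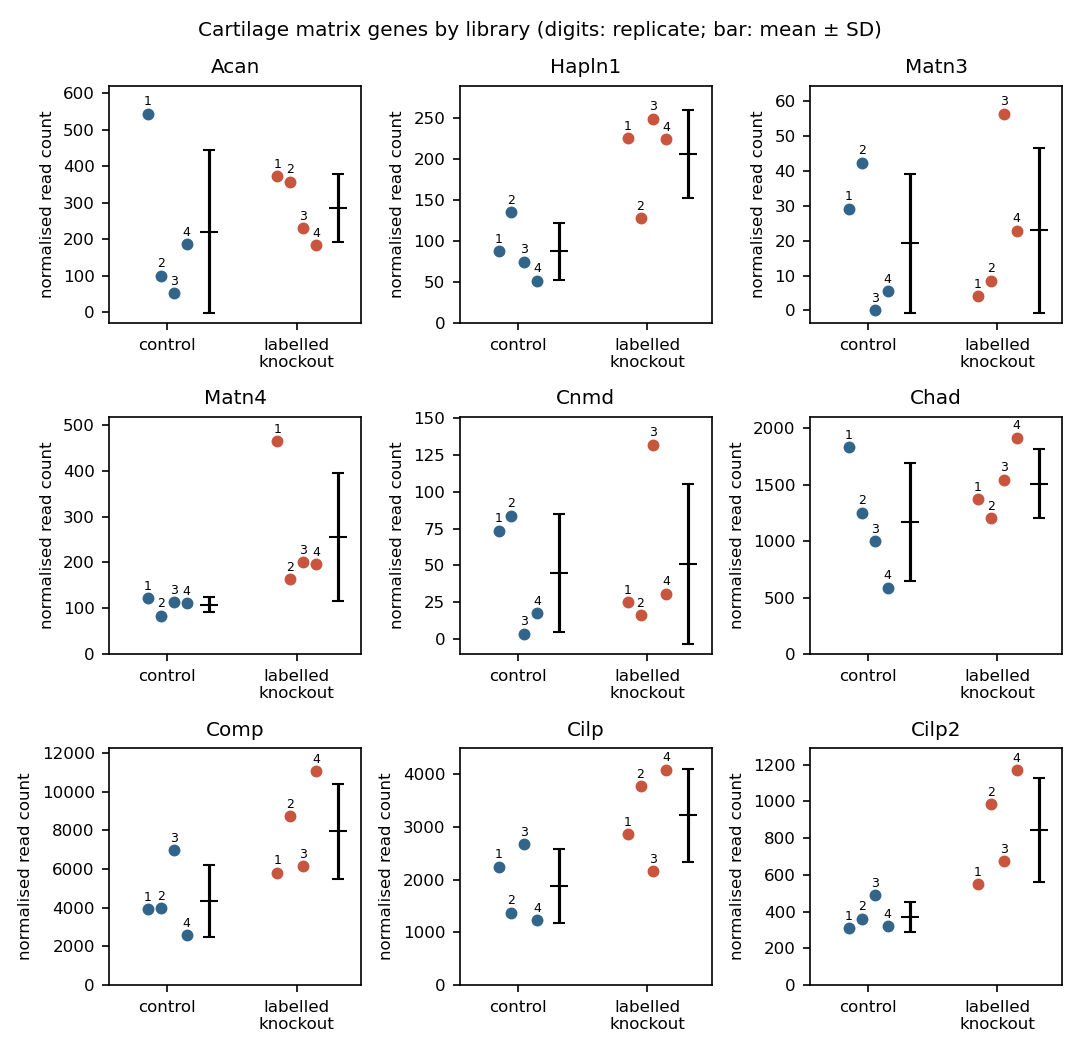
Normalised read count (vertical axis, linear) of each cartilage matrix gene in the 4 control libraries and the 4 libraries labelled knockout. Points are libraries with their replicate number, and bars give the mean and SD. Matn4 and Cilp2 show no overlap between the groups, while the highest Acan value, 544, is a control library.

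Aggrecan forms the core of the proteoglycan aggregate, and its gene (chromosome 7, 79053483 to 79115099, plus strand of mm10) is the Cre driver here. Acan had a normalised read count of 544, 101, 52.3 and 186 in the controls, in replicate order here and for every gene that follows, and of 372, 358, 231 and 184 in the libraries labelled knockout. The 4 control libraries held both the highest and the lowest value, so the groups overlapped entirely. The means were 221 ± 222 and 286 ± 93.3 (SD, n = 4 each), and the log2 difference of 0.84 ± 0.59 (SE) was not called (adjusted p = 0.326 by limma, exact permutation p = 0.343). Control replicate 1 decided this comparison, since without it the difference was 1.45 with a limma adjusted p of 0.0383 (exact permutation p = 0.0571), and without control replicate 3 it was 0.33. On the recovered reads edgeR gave 0.38 for Acan, 0.25 for Matn3 and 0.19 for Cnmd. In control replicate 1 the collagen genes Col2a1 and Col11a2, which mark cartilage, were also far above the other controls, at 2721 against 146 to 677 and 3923 against 558 to 676. Other chondrocyte markers went both ways in that library. Col9a3, Snorc and Ucma were highest there among the controls, and Col9a2 was little above control replicate 2 (168 against 144). Sox9 (75.7) lay within the range of the other controls (67.9 to 117), and Col9a1 (11.9) was the lowest of the controls. Across the controls, then, the level of the driver gene varied 10.4-fold, and in the libraries labelled knockout 2.02-fold.

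The link protein that stabilises aggrecan on hyaluronan is encoded by Hapln1 (chromosome 13, 89539796 to 89611652, plus strand, with the predicted gene Gm8546 opposite). Its normalised read count was 87.6, 135, 74.8 and 51.5 in the controls and 225, 128, 249 and 224 in the libraries labelled knockout. Only knockout replicate 2 lay inside the control range, just under control replicate 2. The mean rose from 87.3 ± 35.3 to 207 ± 53.6 (SD, n = 4 each), a log2 difference of 1.28 ± 0.30 (SE), or 2.42-fold (adjusted p = 0.0165 by limma, exact permutation p = 0.0571). The call ended without knockout replicate 4 (limma adjusted p = 0.0513) and without control replicates 1 and 3 together (0.0614). Per kilobase of exon, link protein and aggrecan RNA stood in no fixed ratio. The ratio of Hapln1 to Acan was 0.204, 1.70, 1.81 and 0.350 in the controls and 0.767, 0.453, 1.37 and 1.54 in the libraries labelled knockout, and the groups overlapped.

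Among the matrilins, Matn4, which is expressed in cartilage and in several other tissues, differed between the groups and Matn3, a gene largely restricted to cartilage, did not pass the test. Matn4 (chromosome 2, 164389393 to 164405160, minus strand, with Rbpjl on the opposite strand) had a normalised read count of 122, 83.8, 113 and 111 in the controls and 465, 163, 200 and 196 in the libraries labelled knockout. The controls lay within 1.46-fold of each other, and knockout replicate 1 was more than 2-fold above any other library. The log2 difference was 1.13 ± 0.30 (SE), or 2.19-fold (adjusted p = 0.0239 by limma, exact permutation p = 0.0286, the smallest that 4 against 4 allows). Without knockout replicate 1 the difference was 0.80 and stayed called (limma adjusted p = 0.0226), while leaving out control replicate 2 (adjusted p = 0.0678) or control replicate 4 (0.0512) ended the call, as quantile normalisation did (0.0549).

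Matn3 (chromosome 12, 8947929 to 8972028, plus strand) was the least abundant member. Its normalised read count was 29.2, 42.4, 0 and 5.48 in the controls and 3.99, 8.55, 56.5 and 22.9 in the libraries labelled knockout. A count of 0 among the 17411617 reads of control replicate 3 allows up to 3 reads, or a value of 2.80, which covers counting error only. High and low libraries occurred in both groups, and the log2 difference of 0.74 ± 1.17 (SE) was not called (adjusted p = 0.680 by limma, exact permutation p = 0.629). It changed sign without control replicate 3, to -0.35.

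Cnmd (chromosome 14, 79637690 to 79662170, minus strand) followed a like order. The normalised read count of this chondromodulin gene was 73.5, 83.8, 3.74 and 17.5 in the controls and 24.9, 16.2, 132 and 30.8 in the libraries labelled knockout. The controls alone spanned 22.4-fold, and the highest value belonged to knockout replicate 3. The log2 difference was 0.44 ± 0.93 (SE) (adjusted p = 0.759 by limma, exact permutation p = 0.714), and it turned negative without control replicate 3 (-0.40) or knockout replicate 3 (-0.17).

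Chad (chromosome 11, 94565047 to 94569127, plus strand, with Acsf2 opposite), whose protein links collagen to chondrocytes, had a normalised read count of 1833, 1253, 1000 and 588 in the controls and 1371, 1206, 1545 and 1918 in the libraries labelled knockout. The ranges overlapped over most of their length, with 1 library of the labelled knockout above every control. The means were 1169 ± 521 and 1510 ± 305 (SD, n = 4 each), a log2 difference of 0.46 ± 0.30 (SE) (adjusted p = 0.275 by limma, exact permutation p = 0.257). Without control replicate 1 the Chad difference was 0.72 (limma adjusted p = 0.0715) and without control replicate 4 it was 0.17. At this spread no difference was detected for Chad, Matn3 or Cnmd.

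The adapter protein COMP, which bridges collagen fibrils, gave the most reads of the set. Comp (chromosome 8, 70373558 to 70382066, plus strand) had a normalised read count of 3907, 3985, 6974 and 2565 in the controls and 5810, 8731, 6151 and 11075 in the libraries labelled knockout. Control replicate 3 stood above knockout replicates 1 and 3, and the other 3 controls lay below every library labelled knockout. The means were 4358 ± 1862 and 7942 ± 2462 (SD, n = 4 each), with a log2 difference of 0.91 ± 0.29 (SE) (adjusted p = 0.0501 by limma, exact permutation p = 0.0857). The gene was called without control replicate 3 (1.17, adjusted p = 0.0122 by limma, exact permutation p = 0.0286) or knockout replicate 3 (1.01, limma adjusted p = 0.0476). It was also called at a pseudocount of 5 (limma adjusted p = 0.0492), above the stricter filter (0.0466), under quantile normalisation (0.0309), on the summed-read scaling (0.0334) and by DESeq2 (adjusted p = 0.0134). In 13 other settings Comp stayed uncalled, among them edgeR (adjusted p = 0.0643). With the replicate number as a block the limma adjusted p was 0.103, and with the muscle score 0.989. Only 2 of the 8 fits that left out 1 library called it, with limma adjusted p up to 0.135.

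Cilp and Cilp2 encode related proteins of the cartilage matrix. Cilp (chromosome 9, 65265180 to 65280605, plus strand) had a normalised read count of 2246, 1373, 2674 and 1226 in the controls and 2868, 3767, 2154 and 4085 in the libraries labelled knockout. Knockout replicate 3 fell below 2 controls, and the other 3 libraries of its group lay above all controls. The log2 difference was 0.81 ± 0.27 (SE) (adjusted p = 0.0578 by limma, exact permutation p = 0.0857). Cilp was called without control replicate 3 (limma adjusted p = 0.0250) or knockout replicate 3 (0.99, limma adjusted p = 0.0290), under quantile normalisation (limma adjusted p = 0.0410), on the summed-read scaling (0.0395) and by DESeq2 (adjusted p = 0.0187). Most other settings left Cilp uncalled, among them edgeR (adjusted p = 0.0693) and the replicate block (limma adjusted p = 0.128). Only 2 of the 8 fits that left out 1 library called it, with limma adjusted p up to 0.152.

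Cilp2 (chromosome 8, 69880369 to 69887687, minus strand) had a normalised read count of 309, 362, 488 and 322 in the controls and 549, 983, 673 and 1169 in the libraries labelled knockout. Every library labelled knockout lay above every control. The mean rose from 370 ± 81.5 to 843 ± 284 (SD, n = 4 each), a log2 difference of 1.15 ± 0.24 (SE), or 2.21-fold (adjusted p = 0.0107 by limma, exact permutation p = 0.0286). Of the 3 members called, Cilp2 alone kept its limma call in all 8 fits that left out 1 library, with adjusted p from 0.00781 to 0.0322. Per kilobase, Cilp exceeded Cilp2 in every library, by 3.84-fold to 7.37-fold in the controls and 3.25-fold to 5.31-fold in the libraries labelled knockout.

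**Figure D2:**
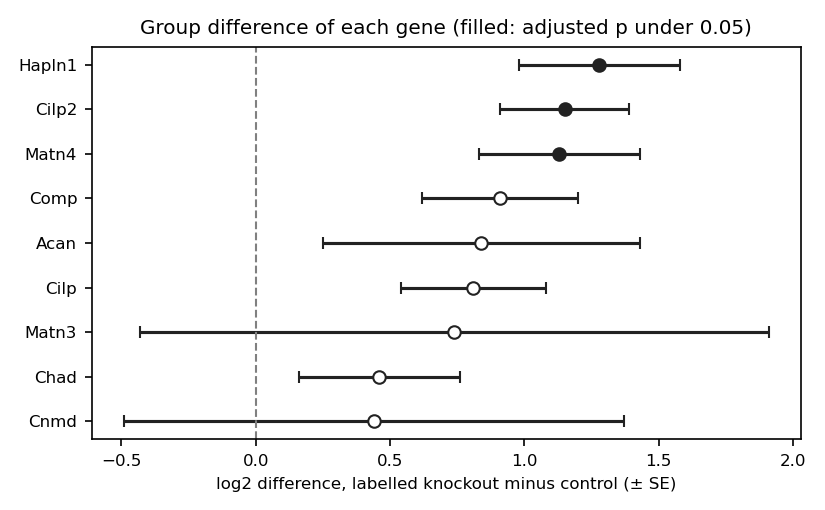
Log2 difference of each cartilage matrix gene, libraries labelled knockout minus control (horizontal axis), with the moderated standard error; filled points passed an adjusted p under 0.05. All 9 estimates lie above 0, from 0.44 for Cnmd to 1.28 for Hapln1, and the bars of Matn3 and Cnmd cross 0.

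Levels were set against each other per kilobase of annotated exon. In the controls Comp was highest at 1469 ± 627 normalised reads per kilobase (SD, n = 4 here and below), then Chad at 696 ± 310, Cilp at 442 ± 164 and Cilp2 at 85.9 ± 18.9. The lower 5 were Acan at 29.6 ± 29.8, Cnmd at 24.2 ± 21.6, Matn4 at 20.8 ± 3.20, Hapln1 at 14.8 ± 5.98 and Matn3 at 6.39 ± 6.62. Only Cilp and Cilp2 were neighbours in this order whose ranges did not overlap, and the highest Acan value, in control replicate 1, lay above the Cilp2 value of that library. Comp nevertheless exceeded Chad in each of the 8 libraries. In the libraries labelled knockout the first 4 kept that order, with Comp at 2677 ± 830, Chad at 899 ± 182, Cilp at 757 ± 206 and Cilp2 at 195 ± 65.7 per kilobase. Below them stood Matn4 at 49.5 ± 27.1, Acan at 38.3 ± 12.5, Hapln1 at 35.0 ± 9.07, Cnmd at 27.6 ± 29.4 and Matn3 at 7.63 ± 7.89, and the order of the first 4 of these 5 did not exceed their spread. Of the reads themselves, which are not divided by length, Comp took 42.7% to 61.3% of the sum over the 9 genes. That sum made up 0.0302% to 0.0699% of a control library and 0.0748% to 0.143% of a library labelled knockout. The summed normalised reads of a whole library were also lower there, at 13253746 to 15225143 against 16157355 to 17332778 in the controls. The sum of the 9 genes itself ran from 5073 to 11380 in the controls and from 11392 to 18906 in the labelled knockout. Without Comp the sums overlapped, at 2507 to 5246 and 5241 to 7831.

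**Figure D3:**
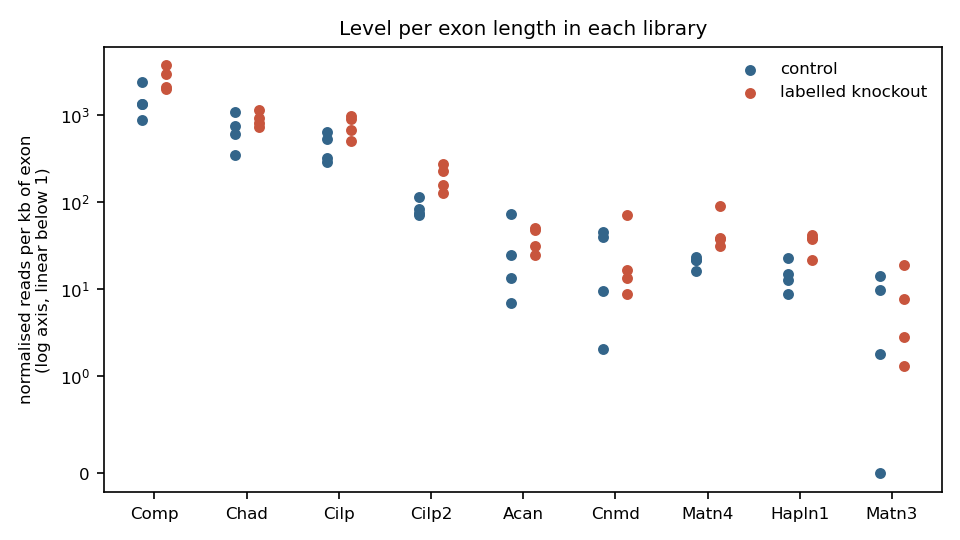
Normalised reads per kilobase of exon (vertical axis, logarithmic above 1 and linear below) of each cartilage matrix gene in each library, genes in the order of their control mean. Comp, Chad and Cilp lie well above the rest, and Matn3, listed at 0 in 1 control library, is lowest in 7 of the 8 libraries, Acan being lowest in control replicate 2.

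Whether the genes varied together within the groups was examined pair by pair. Deviations of the log2 values from the group mean were compared over the 8 libraries for all 36 pairs of members, with exact permutation within the groups. Matn3 and Cnmd gave a Pearson r of 0.95 (exact permutation p = 0.00868) and a Spearman rho of 0.90 (exact p = 0.0104). Comp and Cilp2 gave r = 0.86 (exact p = 0.0104) and rho = 0.83 (exact p = 0.0278), and Comp and Cilp gave r = 0.84 (exact p = 0.0156) and rho = 0.83 (exact p = 0.0278). After adjustment over the 36 pairs none passed 0.05, each of these r having an adjusted exact p of 0.187 and each rho one of 0.328. Without the 2 libraries farthest from the median of the first gene, r was 0.89 for Matn3 with Cnmd, 0.96 for Comp with Cilp2 and 0.69 for Comp with Cilp. For Acan the r with the other 8 genes lay between -0.57 with Cilp2 and 0.42 with Cnmd (exact p = 0.0694 and 0.467, adjusted 0.625 and 0.801). Its positive r with Cnmd, Matn3 (0.36) and Chad (0.24) rested on control replicates 1 and 3, without which they were -0.69, -0.87 and -0.76. The positive r of Acan with Matn4 (0.27, adjusted exact p = 0.712) did not, being 0.49 without these libraries. Of all pairs, 18 of the 36 pairs were above 0.

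**Figure D4:**
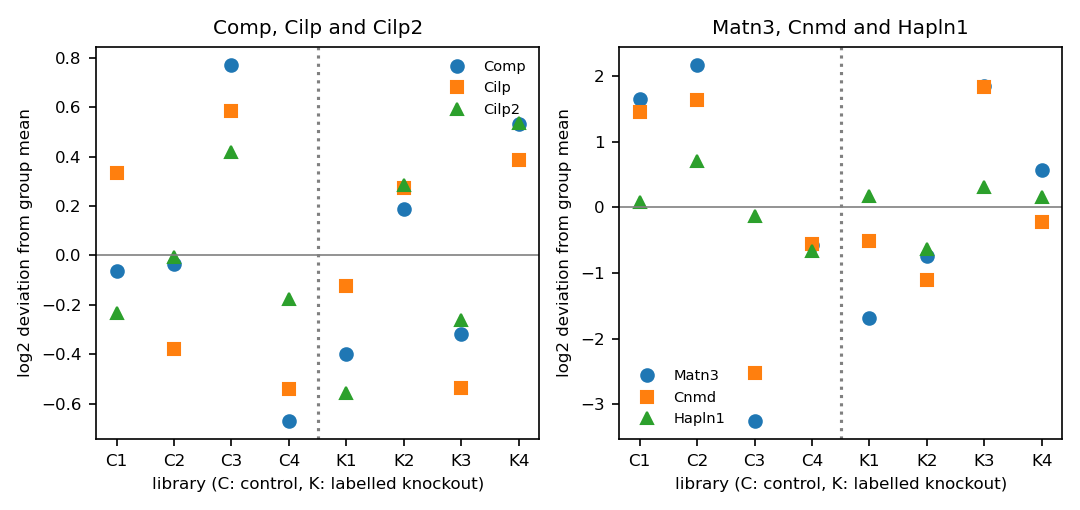
Deviation of each gene's log2 value from its group mean (vertical axis) in each library (horizontal axis), for Comp, Cilp and Cilp2 at left and Matn3, Cnmd and Hapln1 at right. Control replicate 3 (C3) is high for the genes at left and lowest for Matn3 and Cnmd.

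Outside the set, the 5 genes whose deviations most resembled those of Acan over the 8 libraries were Myb (r = 0.984), Srsf4 (0.973), Rhobtb1 (0.966), Dsn1 (0.965) and Ints14 (0.961). They were taken as the highest of all genes tested, and 40 genes outside the set reached an r of at least 0.9, so the values are a description without a test. None of the 5 was called different between the groups, with limma adjusted p from 0.0788 to 0.995.

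Other genes of the cartilage matrix were read from the same fit, by lists. Over all genes tested, 11.6% were called higher and 11.6% lower, which stands beside every count that follows. Of 8 collagen genes of cartilage, 2 were called higher and 0 lower, with a median log2 difference of 0.74, close to that of the members. Col11a1, a chain of the thin fibrils of cartilage that is also made by fibroblasts, rose from 348 ± 319 to 1275 ± 490 normalised reads (SD, n = 4 each; log2 difference 2.17, limma adjusted p = 0.0144), and Col27a1 rose from 450 ± 189 to 1377 ± 412 (1.67, limma adjusted p = 0.0119). Col2a1, the main collagen of hyaline cartilage, had 1045 ± 1140 and 1165 ± 372 normalised reads and was not called (0.79, limma adjusted p = 0.441). The type IX chains were also not called, at -0.12 for Col9a1, 0.70 for Col9a2 and 0.56 for Col9a3.

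Of the 8 tested genes of lecticans (the proteoglycan family of aggrecan), link proteins and hyaluronan handling, 3 were called higher and 0 lower, with a median log2 difference of 1.18. Cd44, the hyaluronan receptor gene (opposite Gm23731), rose by a log2 of 1.09 (limma adjusted p = 0.0293), Hapln3, a further link protein gene, by 1.09 (adjusted p = 0.0415) and the hyaluronan synthase gene Has2 (opposite Has2os) by 1.28 (adjusted p = 0.0418). Hapln3 and Has2 rested on group means of 16.5 to 37.7 and 10.3 to 27.3 normalised reads, and each was called in 1 of 8 fits that left out a library, Cd44 in 3 of 8. Neither Hapln3 nor Has2 was called under quantile normalisation (limma adjusted p = 0.1 and 0.0920) or without the filter on low values (0.0552 and 0.0540). Hapln3 lies beside Acan on chromosome 7, from 79115102, on the opposite strand. The lectican gene Vcan, for versican, was not called (1.27, limma adjusted p = 0.0791).

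Of 12 tested further non-collagenous matrix genes, 3 were called higher and 0 lower, with a median of 0.99. Fmod, the fibromodulin gene, which is abundant in tendon and cartilage, rose from 2707 ± 1090 to 7364 ± 993 normalised reads (log2 difference 1.51, limma adjusted p = 0.00462) and was called in all 8 fits that left out a library. Matn2, a matrilin gene expressed outside cartilage (opposite 9430069I07Rik), rose to 605 ± 158 from 230 ± 171 (limma adjusted p = 0.0198, called in 5 of 8 such fits), and Dcn, for decorin, by 1.10 (adjusted p = 0.0338, called in 2 of 8). The other 9 were not called, with log2 differences from 0.30 for Snorc to 1.15 for Clec3a. The thrombospondin genes, the family of Comp, gave 3 called of 4 tested, with a median of 1.01. Thbs2 rose from 571 ± 375 to 3955 ± 1050 (2.94, limma adjusted p = 0.00397, called in 8 of 8 fits), Thbs3 (opposite Mtx1) by 0.85 (adjusted p = 0.0400) and Thbs4 by 1.16 (adjusted p = 0.0474), the last 2 called in 3 of 8 fits each and not called without control replicates 1 and 3 together (limma adjusted p = 0.0544 and 0.0524).

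Of 10 genes of aggrecan breakdown, 3 were called higher and 0 lower, with a median log2 difference of 0.98. Adamts4, for an aggrecanase, rose from 25.4 ± 16.2 to 116 ± 31.7 normalised reads (2.33, limma adjusted p = 0.00828). Adamts15, a related protease gene, rose from 75.8 ± 9.51 to 204 ± 28.7 (1.41, adjusted p = 0.00397), and Mmp13, for a collagenase of chondrocytes and osteoblasts, rose from 1220 ± 975 to 7645 ± 4000 (2.93, limma adjusted p = 0.00993). Each of these was called in all 8 fits that left out a library. The aggrecanase gene Adamts5 (0.58, limma adjusted p = 0.0922) and its inhibitor gene Timp3 (-0.04, adjusted p = 0.883) were not called.

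Of 7 tested transcription factor genes of chondrocytes, 1 was called higher and 2 lower, with a median of 0.43. Runx2 (overlapped by Supt3 and Runx2os1), a factor of hypertrophic chondrocytes and osteoblasts, rose by a log2 of 1.75 (limma adjusted p = 0.0206, called in 5 of 8 fits that left out a library). Sox6 (opposite Sox6os and Gm45025) and Mef2c, which skeletal muscle also expresses, fell by 0.67 (adjusted p = 0.00561) and by 0.57 (adjusted p = 0.00613), and Mef2c was not called under quantile normalisation (-0.23, limma adjusted p = 0.0959). Sox9, the factor that drives aggrecan and type II collagen expression, was not called (0.32, limma adjusted p = 0.353).

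Markers of the tissues of a joint were measured beside these genes, again against 11.6% called higher and 11.6% lower over all genes tested. Of the 9 chondrocyte markers in the table, Acan among them, 8 were higher and 0 were called, and their summed normalised reads ranged from 1191 to 7709 in the controls and from 2044 to 3684 in the libraries labelled knockout. None of them was at 0 in a control library. Of 7 tendon and ligament markers 7 were higher and 5 called, with sums of 4151 to 8884 and 10532 to 19615, and of 8 fibroblast markers 8 were higher and 5 called, with sums of 52349 to 157505 and 161677 to 286897. Fmod and Thbs4, described above, are on the tendon list. Control replicate 3, the control with the most Comp, Cilp and Cilp2 reads, also had the highest tendon and fibroblast sums among the controls, and knockout replicates 2 and 4 had the highest in theirs for these genes and sums alike. The 15 skeletal muscle markers were all lower, 5 of them called, with sums of 2300121 to 2474955 and 1141422 to 1605507. The osteoblast and osteocyte markers (8 of 8 higher, 3 called, sums 1076 to 7353 and 6057 to 12374), osteoclast markers (6 of 6 higher, 5 called, 1831 to 13701 and 10048 to 38325) and macrophage markers (7 of 7 higher and called, 1357 to 3161 and 4839 to 6608) were also higher, the osteoblast and osteoclast sums overlapping between the groups and the macrophage sums not. Erythroid markers (0 of 7 higher, none called, 16755 to 98968 and 4040 to 42558), neutrophil markers (0 of 7 higher, none called, 1333 to 5505 and 1099 to 2624) and fat cell markers (1 of 5 higher, none called, 2325 to 3946 and 2218 to 3277) overlapped between the groups. The part of these tissues in the differences of the cartilage matrix genes was not tested.

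**Figure D5:**
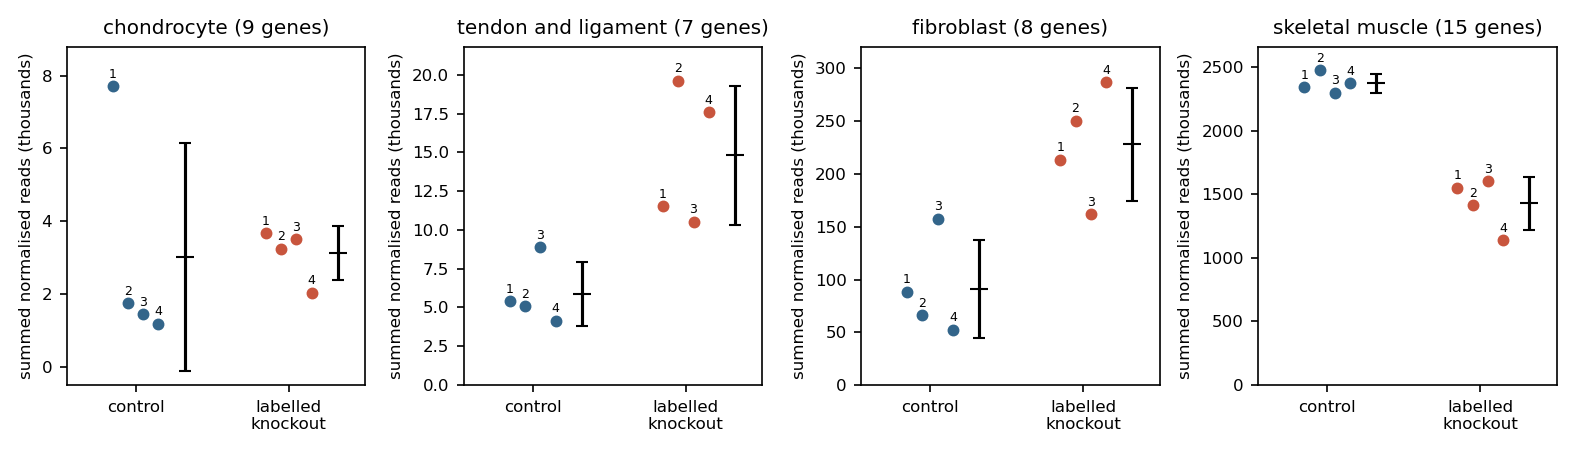
Summed normalised reads (vertical axes, in the units written on them, from 0 or just below) of the marker genes of 4 tissues (panels) in each library, with replicate numbers and the mean and SD. The chondrocyte sums of the groups overlap, while the tendon and ligament, fibroblast and skeletal muscle sums do not.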

How the data were processed

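RNA of 8 mouse knee joint samples was sequenced after poly-A selection, per the labels. The deposited table holds 1 normalised signal per gene and library, made by the authors from reads aligned to mm10 and counted with featureCounts, per the labels. Those also name DESeq2 with its standard normalisation for the authors' own comparison, and the submitters' processing notes name HISAT2. Versions, annotation, strand use and filter values are not given in the sources used here, so genes with another gene on the opposite strand may share its reads, and not every such overlap is reported here. All values were whole multiples (tolerance 0.01) of each column's smallest positive value, which gave the reads back. In 2 columns that step was within 1% of 1.

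Genes reaching 10 in 4 or more libraries were fitted with limma 3.58.1 (trend) on log2(value + 1), with 1 term for the group, and p-values were adjusted by Benjamini-Hochberg over all genes tested. Differences are therefore on the log2(value + 1) scale, which draws low values together. Folds are 2 to the power of that difference. For low genes the estimate depended on the method. The Matn3 difference was 0.74 here, 1.51 at a pseudocount of 0.1, 0.33 at 5, 0.25 by edgeR and 0.26 by DESeq2. Exact two-sided permutation tests used the 70 assignments of libraries, smallest p 0.0286. edgeR 4.0.16 and DESeq2 1.42.0 on the recovered reads were alternatives, and the tests were tested on simulated data. Of the table's rows, 99.2% matched GENCODE M21, which gave coordinates and exon lengths. Promoter stretches are from RefSeq (GRCm38.p6). The members and lists were chosen with earlier results of these data known. Named were all members, Loxl2, up to 3 called genes of smallest p per list, and the 5 genes most like Acan; any further gene was picked with its values in view. The labels give no batch or date. Scaling on summed reads and the fit without control replicates 1 and 3 were added after seeing the data.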

Additional observations from a re-analysis of the deposited data

Results flagged for a closer look

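Over the 20 groups of 4 libraries examined (9 cartilage matrix genes and Loxl2, control and labelled knockout), 2 held a library set apart from the other 3 by more of the group's whole log2 range than Dixon's 95% critical value, which chance passes in about 1 of 20 groups. Hapln1 in knockout replicate 2 was low, at 128 normalised reads, with a gap of 0.843 of the range. Loxl2 in control replicate 3 was high, at 1135, with a gap of 0.847. Hapln1 stayed called without its library (log2 difference 1.49, limma adjusted p = 0.0170), and Loxl2 rose by 1.91 without control replicate 3 (limma adjusted p = 0.00188).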

How the results depend on the processing

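The number of cartilage matrix genes called was 3 and was 2 to 4 in most settings, edgeR among them (3). It was 5 by DESeq2, 5 on summed-read scaling, 0 with the muscle score as covariate, and 2 to 5 when 1 library was left out. Over all genes, 3461 calls became 2018 with the replicate block and 0 with the muscle score (710 at an unadjusted p under 0.05), and lay between 1751 (without knockout replicate 4) and 3841 (without knockout replicate 3) when 1 library was left out; without control replicate 2 or 4 there were 1887 and 2194. Same-numbered libraries did not deviate together (r from -0.233 to 0.213). These r cannot show whether the libraries were paired by animal or preparation, and the labels state no pairing. With the replicate block 2 members were called, Hapln1 being lost (limma adjusted p = 0.0511), as were Loxl2 (0.0513), Cd44 (0.0592), Hapln3 (0.0553), Has2 (0.0762), Dcn (0.0878), Thbs3 (0.0544) and Thbs4 (0.0852). Without control replicates 1 and 3 the count was 3 (Comp, Cilp and Cilp2), with Hapln1 at 0.0614 and Matn4 at 0.0540. Matn4 also lost its call under quantile normalisation (0.0549). With the muscle score, Dcn turned to -0.34 and Cilp to -0.32, neither called (limma adjusted p = 0.973 each). Pseudocounts left the members called unchanged except for Comp at 5, where 4 were called. Under the stricter filter Matn3 and Cnmd were not tested. These 2 genes had the lowest group means of the set, with 4 Matn3 values and 1 Cnmd value under 10. The part of depth in their spread was not tested.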
